A study of Mus musculus with 6 samples.

Results

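Glucose uptake, glycolysis, lactate exchange and the citrate cycle were followed through 36 listed genes in ribosome-bound RNA of S100a10 cells of the mouse cortex. The members were all probe sets annotated to 1 of these symbols alone, and each gene was represented by the probe set that was brightest on average over the 6 arrays. Of the 36 genes, 34 had such a probe set, 81 probe sets in all of 45101 in the table. For Gapdh these were only the array's 3 control probe sets, and Gpi1 and Eno1 had none annotated to them alone and are not measured here. The other 33 genes had 78 probe sets, of which 67 passed a filter on low values (a geometric mean intensity of at least 50); the brightest probe set of all 33 genes passed it.

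The samples came from mice of the S100a10 bacTRAP line ES691, in which a tagged ribosomal protein is made under the control region of S100a10 on a bacterial artificial chromosome, so that the ribosomes of those cells can be affinity-purified with their RNA (TRAP). Its background was C57BL/6, reached from FVB by 3 to 5 generations of backcrossing. In the fluoxetine group, 3 samples came from mice that drank 0.167 mg/ml fluoxetine, a serotonin reuptake inhibitor, with 1% saccharine for 15 to 18 days; in the vehicle group, 3 samples came from mice that drank 1% saccharine alone over the same days. The labels call the samples independent biological replicates; age, sex and whether animals were pooled are not given in the sources used here. The submitters state that the transgene also labels some cells that are not neurons, and their advice was to keep only a list of probe sets from the paper; that list was not applied. All levels below are log2 of the deposited normalized intensity. They differ between probe sets for technical reasons, so a level is set against the same probe set on other arrays and never against another gene.

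Glucose enters brain cells through transporters such as Slc2a1 and Slc2a3, is phosphorylated by hexokinases, and is broken down to pyruvate by the glycolytic enzymes, with phosphofructokinase as a main control point. Pyruvate is either turned into lactate, which monocarboxylate transporters carry across membranes, or passed through the pyruvate dehydrogenase complex into the citrate cycle of the mitochondrion. Astrocytes are known for strong glycolysis and lactate release, and neurons for lactate uptake and oxidation.

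No member gene passed the test for a difference between fluoxetine and vehicle. In limma, with Benjamini-Hochberg adjustment over all 22326 tested probe sets, 0 of the 33 genes passed an adjusted p of 0.05, as did 0% of all tested probe sets, and the smallest adjusted p was 0.999. None of the 33 had an unadjusted p under 0.05, against 2.52% of all tested probe sets; the smallest was 0.116, for Pdk2. Fluoxetine was higher than vehicle for 18 genes and lower for 15, with a median difference of 0.01 in log2, whereas 33.7% of all tested probe sets were higher and 66.3% lower, with a median of -0.06. After quantile normalization between arrays, which moved the median of all tested probe sets to -0.001, the split was 27 higher and 6 lower, and after a shift of each array to a common median it was 26 higher and 7 lower; over all 22326 tested probe sets, 11108 were then higher after quantile normalization and 11331 after the shift. The split also rested on single arrays: 7 genes were higher without fluoxetine 1, 27 without fluoxetine 2, and 9 without fluoxetine 1 and vehicle 2 together.

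The differences were small for most members. They ran from -0.22 for Pdk1 to 0.40 for Pdk2, and 25 of 33 (75.8%) lay within 0.1 of 0, compared with 47.1% of all tested probe sets. The members stand by their brightest probe sets, and level was not matched in this comparison. After quantile normalization 21 members lay within 0.1 of 0, and after the median shift 22 did. The 95% intervals of all 33 differences held 0 and lay within 1 in log2 on either side, and 23 of them lay within 0.5. The groups did not overlap for Pdk2, which was higher on every fluoxetine array, and for Ldhb, which was lower on every fluoxetine array. These 2 of 33 genes (6.06%) compare with 8.05% of all tested probe sets, 2.83% higher and 5.23% lower. They also depend on the scaling: after quantile normalization or the median shift, 2 members were higher on every fluoxetine array and 0 were lower. The shares over all tested probe sets hold for the deposited values only, so the rescaled counts cannot be set against a share.

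**Figure D1:**
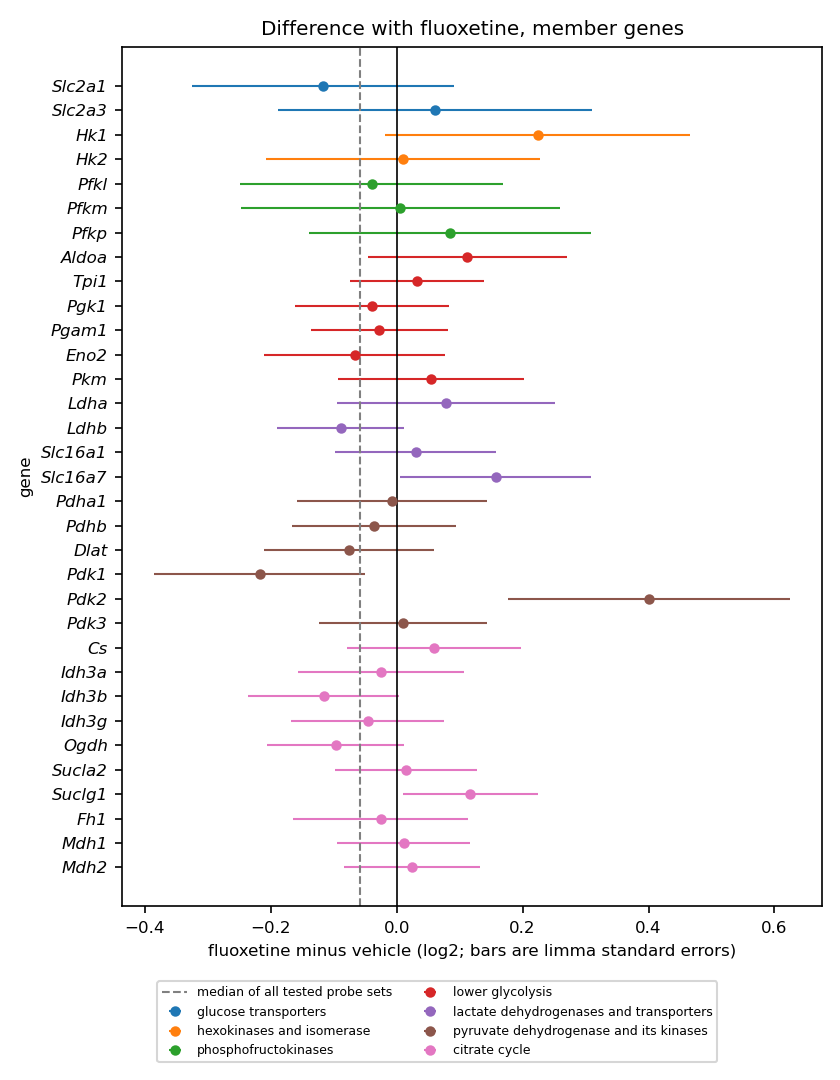
Fluoxetine minus vehicle in log2 for the 33 member genes, ordered along the pathway and coloured by role; points are differences of group means of 3 arrays each, bars are limma standard errors, and the dashed line is the median of all tested probe sets (-0.06). The points lie between -0.22 and 0.40, and 25 of the 33 are within 0.1 of 0.

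As deposited, what set the arrays apart was the spread inside the fluoxetine group. Fluoxetine 1 was the highest of the 6 arrays for 20 of the 33 genes (60.6%) and the lowest for 0, while fluoxetine 2 was the lowest for 24 (72.7%). Over all tested probe sets the corresponding shares were 24.1% for fluoxetine 1 as the highest and 28.2% for fluoxetine 2 as the lowest. After quantile normalization fluoxetine 1 was the highest for 18 genes and fluoxetine 2 the lowest for 15, beside 24.5% and 19.0% of all tested probe sets. Vehicle 2, the lowest for 2 genes as deposited, was then the lowest for 11 (33.3%), beside 17.5% of all tested probe sets. The mean level over the 33 genes was 13.30, 12.97 and 13.16 on fluoxetine 1 to 3 and 13.15, 13.15 and 13.10 on vehicle 1 to 3.

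As deposited, the vehicle arrays stayed close together by comparison. The range over the fluoxetine arrays was wider than that over the vehicle arrays for 28 of 33 genes, against 60.2% of all tested probe sets, and for 24 genes every vehicle value lay inside the fluoxetine range. The median range was 0.40 in the fluoxetine group and 0.14 in the vehicle group; over all tested probe sets it was 0.37 and 0.29. Fluoxetine 1 exceeded fluoxetine 2 for 29 of 33 genes, beside 57.2% of all tested probe sets.

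**Figure D2:**
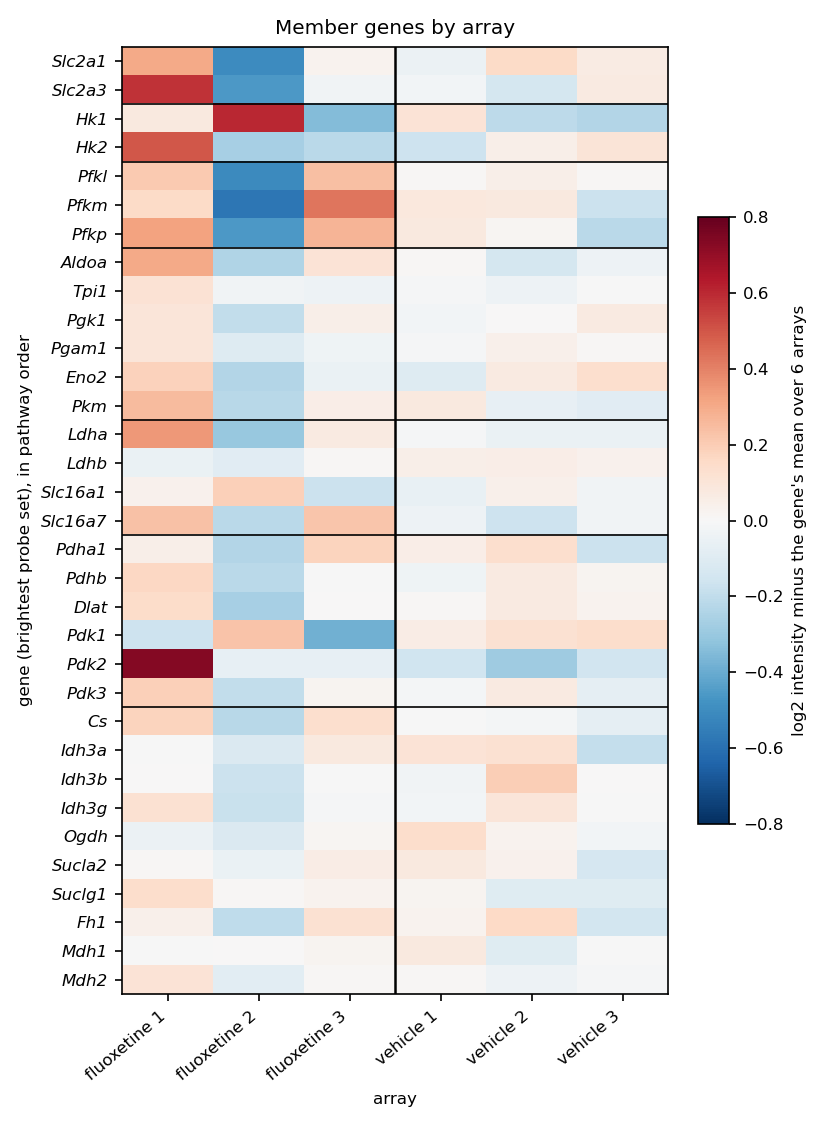
Log2 intensity of each member gene (rows, in pathway order, with lines between roles) on each array (columns), as the deviation from the gene's mean over the 6 arrays; red is above and blue below the mean, and the vertical line separates fluoxetine from vehicle. The fluoxetine 1 column is mostly red and the fluoxetine 2 column mostly blue, while the vehicle columns are pale. Pdk1 is clearly turned the other way in both columns, and Hk1 and Slc16a1 are red in the fluoxetine 2 column. Mdh1 and Suclg1 lie barely above their means on fluoxetine 2. On fluoxetine 1, Ldhb and Ogdh lie slightly below their means, and Mdh1 and Idh3a barely below.

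The excess of fluoxetine 1 over fluoxetine 2 was largest for the 2 glucose transporters. Slc2a3, the high-affinity transporter of neurons, measured 13.35, 12.31 and 12.75 on fluoxetine 1 to 3 and 12.75, 12.63 and 12.84 on vehicle 1 to 3. All 3 vehicle arrays lay inside a fluoxetine range of 1.04, and the difference was 0.06 ± 0.25 (limma SE, n = 3 per group, adjusted p = 0.999). Without fluoxetine 1 and vehicle 2 it was -0.27. Slc2a1, the transporter of the blood-brain barrier and astrocytes, measured 12.19, 11.38 and 11.91 with fluoxetine and 11.84, 12.04 and 11.95 with vehicle, a difference of -0.12 ± 0.21. Its 3 probe sets were all lower on average with fluoxetine, and for each of them fluoxetine 2 was the lowest array and fluoxetine 1 the highest.

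The hexokinases, which trap glucose inside the cell, did not share an order of the arrays. Hk1, the main brain form, measured 13.39, 13.92 and 12.97 with fluoxetine and 13.42, 13.11 and 13.08 with vehicle. Fluoxetine 2 was its highest array and fluoxetine 3 its lowest, and a dimmer probe set of Hk1 had the same order at both ends (7.32, 8.09 and 6.38 with fluoxetine; 7.40, 6.71 and 6.74 with vehicle). The difference of the bright probe set was 0.22 ± 0.24, and leaving out fluoxetine 2 turned it to -0.02. Hk2, the inducible form, measured 9.02, 8.26 and 8.31 with fluoxetine and 8.36, 8.57 and 8.63 with vehicle, so only fluoxetine 1 stood above the vehicle arrays, and the difference was 0.01 ± 0.22.

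The 3 phosphofructokinase genes, which encode subunits of the enzyme that commits sugar phosphate to glycolysis, were all lowest on fluoxetine 2. The muscle-type subunit Pfkm measured 13.48, 12.75 and 13.76 with fluoxetine and 13.41, 13.40 and 13.16 with vehicle, with the largest standard error of any member (0.01 ± 0.25). The platelet-type subunit Pfkp, common in brain, measured 13.52, 12.74 and 13.47 with fluoxetine and 13.28, 13.22 and 12.99 with vehicle (0.08 ± 0.22). The liver-type subunit Pfkl measured 12.78, 12.06 and 12.81 with fluoxetine and 12.58, 12.61 and 12.57 with vehicle (-0.04 ± 0.21). In each case fluoxetine 1 and 3 were above all vehicle arrays and fluoxetine 2 below all of them. A dim second probe set of Pfkp (6.24, 6.31 and 6.17 against 6.11, 5.79 and 6.11) was higher on every fluoxetine array and did not have the low value on fluoxetine 2.

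In lower glycolysis, fluoxetine 1 was the highest array for all 6 genes tested and fluoxetine 2 the lowest for 5. Aldoa, the aldolase that splits fructose bisphosphate, measured 15.64, 15.10 and 15.45 with fluoxetine and 15.35, 15.20 and 15.30 with vehicle, a difference of 0.11 ± 0.16. Pkm, the pyruvate kinase that makes pyruvate, measured 13.94, 13.46 and 13.74 against 13.76, 13.62 and 13.59 (0.05 ± 0.15). Eno2, the enolase of neurons, measured 13.93, 13.52 and 13.70 against 13.65, 13.82 and 13.89 (-0.07 ± 0.14). The groups overlapped for all of these, and the remaining 3, the isomerase Tpi1, the kinase Pgk1 and the mutase Pgam1, differed by 0.03, -0.04 and -0.03.

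Gapdh, the dehydrogenase between aldolase and Pgk1, was read only from the array's controls and entered no fit. Its brightest probe set, the 3' one, measured 15.56, 15.26 and 15.54 with fluoxetine and 15.48, 15.47 and 15.49 with vehicle. The middle probe set measured 14.53, 14.01 and 14.39 with fluoxetine and 14.36, 14.28 and 14.30 with vehicle. Both were highest on fluoxetine 1 and lowest on fluoxetine 2. The 5' probe set (13.22, 12.88 and 12.87 against 13.03, 12.85 and 12.96) was highest on fluoxetine 1 but lowest on vehicle 2. The same controls give a measure of how complete the amplified RNA was. The 3' minus 5' difference of Gapdh was 2.35, 2.39 and 2.67 with fluoxetine and 2.45, 2.63 and 2.53 with vehicle (exact two-sided permutation p = 0.6, n = 3 per group, smallest possible p 0.1). That of Actb was 3.02, 3.07 and 3.26 against 3.00, 3.38 and 3.07 (exact permutation p = 0.9). That of Pcx was 4.0, 3.58 and 3.95 against 3.74, 4.15 and 3.94 (exact permutation p = 0.7). Fluoxetine 1 and 2 lay close together for Gapdh and Actb but were the furthest apart of their group for Pcx. The 5' probe set of Pcx was dim, at a level below the filter (4.65, 4.66 and 4.68 with fluoxetine). Its 3' minus 5' difference thus followed the 3' probe set alone (8.65, 8.25 and 8.64) and says little about how complete the RNA was. The dim Tfrc control gave an exact permutation p of 1.

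As deposited, the lactate genes held the only member that was lower on every fluoxetine array. After quantile normalization or the median shift, 0 members were lower on every fluoxetine array and 2 were higher. Ldhb, the lactate dehydrogenase subunit typical of oxidative tissue, measured 15.32, 15.28 and 15.38 with fluoxetine and 15.42, 15.42 and 15.41 with vehicle. The gap between the groups was narrow, and the difference was -0.09 ± 0.10, the smallest standard error among the members, with an adjusted p of 0.999 in limma. All 4 probe sets of Ldhb were lower on average with fluoxetine, from -0.18 to -0.09, and for 2 of them the groups did not overlap as deposited. After the median shift the difference of the brightest one was -0.03. Ldha, the subunit typical of glycolytic tissue, measured 13.48, 12.82 and 13.20 against 13.12, 13.07 and 13.07, a difference of 0.08 ± 0.17 with overlapping groups.

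Of the lactate carriers, Slc16a7, the high-affinity transporter of neurons (MCT2), measured 9.04, 8.59 and 9.03 with fluoxetine and 8.77, 8.64 and 8.78 with vehicle (0.16 ± 0.15). Slc16a1 (MCT1), found on endothelial and glial cells, measured 11.17, 11.32 and 10.96 against 11.07, 11.18 and 11.11 (0.03 ± 0.13), with fluoxetine 2 its highest array. Neither passed the test, and the groups overlapped for both genes.

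The pyruvate dehydrogenase kinases, which switch the complex off by phosphorylation, held both ends of the range of differences. Pdk2 measured 8.19, 7.39 and 7.39 with fluoxetine and 7.30, 7.17 and 7.30 with vehicle. The lowest fluoxetine values were only just above the highest vehicle value, and fluoxetine 1 stood far above the rest: the difference was 0.40 ± 0.22 with all arrays and 0.13 without fluoxetine 1. Pdk1 measured 12.08, 12.48 and 11.87 against 12.31, 12.37 and 12.39, so fluoxetine 1 and 3 lay below the vehicle arrays and fluoxetine 2 above them. Its difference was -0.22 ± 0.17 with all arrays and -0.08 without fluoxetine 3, and all 3 of its tested probe sets were lower with fluoxetine. The order of the fluoxetine arrays was not shared by all 3. A dimmer probe set kept it (10.17, 10.27 and 9.88 with fluoxetine). Another measured 10.46, 10.23 and 10.31 against 10.45, 10.57 and 10.26, with fluoxetine 2 its lowest array. Pdk3 differed by 0.01 ± 0.13.

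The catalytic members of the complex had small differences. The E1 subunits Pdha1 and Pdhb differed by -0.01 and -0.04 and the E2 subunit Dlat by -0.08, each less than its standard error. Fluoxetine 2 was the lowest array for all 3. Pdhb, for instance, measured 13.62, 13.25 and 13.45 with fluoxetine and 13.42, 13.53 and 13.48 with vehicle.

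The 10 citrate cycle genes were the most even group across arrays. Their mean level was 14.28, 14.11 and 14.27 with fluoxetine and 14.27, 14.27 and 14.16 with vehicle; that of the 3 phosphofructokinase genes was 13.26, 12.52 and 13.35 against 13.09, 13.08 and 12.91. Fluoxetine was higher for 5 and lower for 5 (8 and 2 under either scaling alternative), from -0.12 for Idh3b to 0.12 for Suclg1. Cs, the citrate synthase that opens the cycle, had the widest fluoxetine range of the 10: it measured 14.92, 14.52 and 14.87 against 14.74, 14.73 and 14.67 (0.06 ± 0.14). Mdh1, the cytosolic malate dehydrogenase, had the narrowest, with 15.96, 15.96 and 15.98 against 16.04, 15.87 and 15.96 (0.01 ± 0.11).

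The remaining cycle genes were similar. Suclg1, a subunit of succinate-CoA ligase, measured 13.39, 13.26 and 13.28 with fluoxetine and 13.27, 13.15 and 13.15 with vehicle (0.12 ± 0.11), with the groups overlapping by less than 0.02. Its partner subunit Sucla2 differed by 0.01, the mitochondrial malate dehydrogenase Mdh2 by 0.02 and the fumarase Fh1 by -0.03. Of the 3 subunits of NAD-dependent isocitrate dehydrogenase, Idh3b differed by -0.12, Idh3g by -0.05 and Idh3a by -0.03.

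Ogdh, the first subunit of the oxoglutarate dehydrogenase complex, had probe sets that disagreed. The bright one measured 11.64, 11.57 and 11.71 with fluoxetine and 11.83, 11.72 and 11.67 with vehicle (-0.10 ± 0.11). The dim one measured 7.29, 7.05 and 6.98 against 6.69, 6.89 and 6.44 and did not overlap (0.43 ± 0.16, unadjusted p = 0.026, adjusted p = 0.999 in limma). Of the 67 tested probe sets of member genes it alone had an unadjusted p under 0.05 (1.49%, beside 2.52% of all tested). The direction also differed between probe sets of Aldoa, Dlat, Idh3a, Mdh1, Mdh2, Pdha1, Pfkl and Tpi1, within 0.16 of 0 in each; in all, 9 of the 20 genes with several tested probe sets were mixed and 11 kept 1 direction.

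The balance between isozymes was compared within each array, which removes any scaling of a whole array. Of 11 planned pairs 10 could be formed, since Eno1 was not measured. The smallest exact permutation p was 0.2 (0.667 after Benjamini-Hochberg adjustment over the 10 pairs), and with 3 arrays a group it could not fall below 0.1. Pdk1 minus Pdk2 was 3.89, 5.09 and 4.47 with fluoxetine and 5.02, 5.20 and 5.09 with vehicle, a difference of -0.62 with a 95% interval from -1.59 to 0.35. Ldha minus Ldhb was -1.84, -2.46 and -2.18 against -2.30, -2.35 and -2.33, a difference of 0.17 with an interval from -0.33 to 0.66. The 3 comparisons among phosphofructokinase genes had differences from -0.12 to -0.05, with every interval within 0.4 of 0. In these pairs the low values of fluoxetine 2 cancelled: Pfkl minus Pfkm was -0.71, -0.69 and -0.95 with fluoxetine and -0.84, -0.79 and -0.58 with vehicle.

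**Figure D3:**
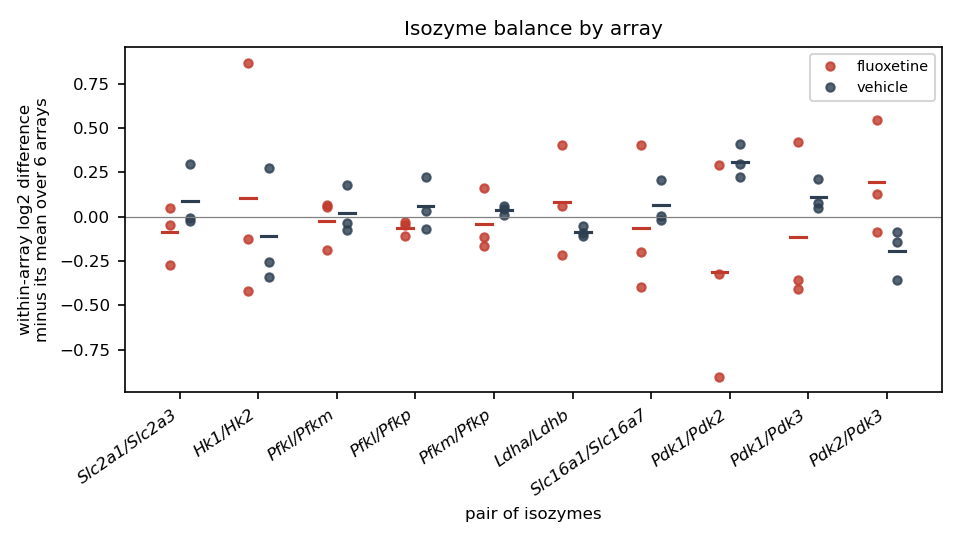
Within-array log2 difference of 10 isozyme pairs, each shown as its deviation from the pair's mean over the 6 arrays; red points are fluoxetine arrays, dark points vehicle arrays, and bars are group means of 3 arrays. The groups overlap for all 10 pairs, the fluoxetine points are widest apart for Hk1/Hk2 and Pdk1/Pdk2, and the smallest exact p over the pairs is 0.2.

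Promoters are shown for the genes at the ends of the spread within the fluoxetine group: the 2 with the largest excess of fluoxetine 1 over fluoxetine 2 among genes with a RefSeq promoter entry (Slc2a1, 0.81; Pdk2, 0.80) and the 2 with the largest deficit (Pdk1, -0.39; Hk1, -0.53). They were chosen by these values of the brightest probe sets and carry no test. Each is the 250 bases before a RefSeq transcription start in build GRCm38.p6, the only or the first listed of the gene's starts: chr4:119108495-119108744 on the plus strand, chr11:95041372-95041621 on the minus strand, chr2:71872974-71873223 on the plus strand and chr10:62379909-62380158 on the minus strand. Capitals mark the core letters bound by hypoxia-inducible factors, ACGTG or GCGTG, on either strand (CACGT and CACGC on the other), which overlap the E-box CACGTG.
Slc2a1: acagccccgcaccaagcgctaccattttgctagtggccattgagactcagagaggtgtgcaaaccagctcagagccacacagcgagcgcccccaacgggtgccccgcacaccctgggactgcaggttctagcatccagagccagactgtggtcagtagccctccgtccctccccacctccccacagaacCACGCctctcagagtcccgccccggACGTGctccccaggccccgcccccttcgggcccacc
Pdk2: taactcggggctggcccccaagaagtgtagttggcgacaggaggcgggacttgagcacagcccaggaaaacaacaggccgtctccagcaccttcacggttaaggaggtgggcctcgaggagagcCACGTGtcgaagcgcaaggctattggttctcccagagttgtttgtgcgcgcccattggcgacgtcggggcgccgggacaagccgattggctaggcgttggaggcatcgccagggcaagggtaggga
Pdk1: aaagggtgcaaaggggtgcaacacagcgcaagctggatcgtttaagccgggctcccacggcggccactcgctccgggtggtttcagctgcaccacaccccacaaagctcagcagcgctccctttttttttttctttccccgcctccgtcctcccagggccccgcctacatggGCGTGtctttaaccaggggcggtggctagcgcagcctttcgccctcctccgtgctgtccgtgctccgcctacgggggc
Hk1: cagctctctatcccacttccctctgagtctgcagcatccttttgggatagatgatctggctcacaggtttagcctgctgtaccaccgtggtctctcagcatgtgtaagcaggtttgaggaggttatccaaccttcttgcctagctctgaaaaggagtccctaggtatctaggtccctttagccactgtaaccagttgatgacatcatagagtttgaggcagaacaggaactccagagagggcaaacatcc
The Slc2a1 and Pdk2 windows held 2 matches each, which in Pdk2 overlap as CACGTG, the Pdk1 window held 1, and the Hk1 window shown 0. Hk1, Pdk1 and Pdk2 have 2 listed starts each, and 1 window of each gene held a match. The Hk1 window that is not shown held 3 matches, more than any window shown, so these counts do not order the 4 genes. Of the 33 listed genes with an entry, 23 held at least 1 match in the first window (69.7%), beside 38.6% of all 27025 genes with an entry; base composition differs between promoters and was not matched. Slc2a3, Slc16a7 and Idh3a had no entry. A match is a description of letters and was not tied to the levels.

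Other genes of the same pathways were also without a call, and their splits by direction, to be read against the 33.7% of all tested probe sets that were higher, changed with the scaling. Of the 17 tested genes of a wider glycolysis and lactate list 8 were higher and 9 lower, and 0 passed in limma; quantile normalization left 12 higher and the median shift 13. The muscle enolase Eno3 measured 10.31, 7.87 and 9.19 with fluoxetine and 7.95, 8.15 and 8.30 with vehicle (0.99 ± 0.54), following the order of fluoxetine 1 over 3 over 2. Aldoc, the aldolase of astrocytes, which was chosen after its values were seen, had the same order with 13.60, 12.06 and 13.25 against 12.75, 12.65 and 12.89. Adpgk, an ADP-dependent glucokinase, was higher on every fluoxetine array (7.29, 6.97 and 6.90 against 6.87, 6.44 and 6.77). The hexokinase-like gene Hkdc1 (9.98, 9.97 and 10.09 against 10.23, 10.23 and 10.18) was lower on every fluoxetine array, and the D-lactate dehydrogenase Ldhd overlapped (-0.26 ± 0.13). After quantile normalization 0 genes of this list were lower on every fluoxetine array and 2 were higher. After the median shift 1 was lower and 3 were higher. For these and the lists below, no share over all tested probe sets stands beside the rescaled counts.

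Of 16 other pyruvate dehydrogenase and citrate cycle genes 6 were higher and 10 lower, with 0 passing; quantile normalization turned the split to 10 higher and 6 lower, and the median shift turned it to 11 and 5. The 4 with the smallest p were Pdhx (0.10), Pdpr (-0.11), Idh1 (-0.07) and Idh2 (-0.15). Of 10 genes of the malate-aspartate shuttle and anaplerosis 2 were higher and 8 lower, with 0 passing, and 6 were higher and 4 lower under either scaling alternative. Me3 differed by 0.23, Me2 by -0.13 and the aspartate-glutamate carrier Slc25a12 by -0.14. Acly, which splits citrate in the cytosol, was lower on every fluoxetine array by a narrow gap (13.90, 13.88 and 13.98 against 14.02, 14.03 and 14.06). Under either scaling alternative, 0 genes of the shuttle and anaplerosis list were lower on every fluoxetine array and 0 were higher.

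Of 15 pentose phosphate and glycogen genes 4 were higher and 11 lower, with 0 passing; quantile normalization left 8 higher and the median shift 7. The muscle glycogen phosphorylase Pygm measured 8.86, 8.93 and 9.18 with fluoxetine and 9.25, 9.28 and 9.32 with vehicle, lower on every fluoxetine array (-0.29 ± 0.12, unadjusted p = 0.048, adjusted p = 0.999 in limma). Under either scaling alternative, 0 genes of this list were lower on every fluoxetine array and 1 was higher. The liver form Pygl was low on fluoxetine 1 alone (6.29, 7.57 and 7.60 against 7.44, 7.58 and 7.55), so that its difference of -0.37 became 0.06 without that array. H6pd and Rpia differed by -0.19 and -0.14.

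Among 15 regulators of glucose use 4 were higher and 11 lower, with 0 passing, and 6 were higher and 9 lower under either scaling alternative. Ppargc1b, a coactivator of mitochondrial genes, differed by -0.36 ± 0.21 and the hypoxia-inducible factor Epas1 by -0.19 ± 0.14. Txnip, an arrestin that restrains glucose uptake, measured 12.14, 12.20 and 11.48 against 12.13, 12.18 and 12.23, with only fluoxetine 3 apart. Egln1, a prolyl hydroxylase that marks hypoxia-inducible factors for breakdown, was lower on every fluoxetine array by a gap under 0.01 (-0.13 ± 0.11). Under either scaling alternative, 0 of these regulators were lower on every fluoxetine array. After quantile normalization 1 was higher on every fluoxetine array, and after the median shift 0 were.

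Markers of other cells also differed between the fluoxetine arrays. Among 12 astrocyte markers, 7 were highest on fluoxetine 1 and 5 lowest on fluoxetine 2. Their mean level was 11.43, 10.34 and 10.93 with fluoxetine and 10.39, 10.54 and 10.55 with vehicle. Gfap, which measured 12.13, 4.49 and 9.02 against 4.70, 5.24 and 5.67, weighs heavily on this mean. The median deviation from the other arrays was smaller, at 0.34, -0.20 and 0.12 with fluoxetine and -0.12, -0.03 and -0.04 with vehicle. The summed intensity of the list did not share this order: it ran from 57301 to 66792 with fluoxetine and from 57731 to 65193 with vehicle. The bright marker Gja1 measured 14.48, 14.59 and 14.45 against 14.48, 14.74 and 14.77. Sox9 was higher on every fluoxetine array (8.89, 8.74 and 8.68 against 8.17, 8.16 and 8.23, adjusted p = 0.999 in limma). It was the only 1 of the 12 without overlap, beside 8.05% of all tested probe sets.

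Of 9 oligodendrocyte markers 7 were tested, and 5 of these were lowest on fluoxetine 2; the summed intensity was 15661 on fluoxetine 2, between 23667 and 24529 on the other fluoxetine arrays, and between 22395 and 24407 on the vehicle arrays. Pyramidal neuron markers were present, with 8 of 9 tested, and their summed intensity ran from 19663 to 20980 with fluoxetine and from 20738 to 21213 with vehicle. Of 6 inhibitory neuron markers, all tested, 2 were lowest on fluoxetine 1 and 2 on fluoxetine 2, and the summed intensity ran from 17188 to 22101 with fluoxetine and from 19013 to 19679 with vehicle.

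Markers of pericytes and smooth muscle ran the other way on fluoxetine 1, which was the lowest array for 4 of the 5 tested (of 7). Their mean level was 9.81, 10.32 and 10.12 with fluoxetine and 10.19, 10.52 and 10.79 with vehicle, all 5 were lower on average with fluoxetine, and the summed intensity ran from 6889 to 9205 with fluoxetine and from 8568 to 13485 with vehicle. Of 9 microglial markers 6 were tested, while P2ry12, Itgam and Aif1 were below the filter. Of the 6, 5 were higher on average with fluoxetine, and fluoxetine 3 was the highest array for 5. Ctss alone was lower (10.47, 11.38 and 11.61 against 11.06, 11.37 and 11.38). Csf1r (9.48, 9.03 and 9.97 against 9.34, 9.47 and 9.52) differed by 0.06. Cx3cr1, C1qa, C1qb and Tmem119 differed by 0.21, 0.24, 0.18 and 0.09. The summed intensity of the 6 ran from 3167 to 5349 with fluoxetine and from 3540 to 4516 with vehicle. Of 9 endothelial markers 6 were tested at low levels, with a summed intensity from 593 to 684 with fluoxetine and from 563 to 744 with vehicle, and Pecam1, Tek and Tie1 were below the filter. The nuclear and non-coding transcripts, a sign of RNA that is not bound to ribosomes, had a mean level of 7.19, 7.83 and 7.79 with fluoxetine and 8.03, 7.97 and 7.29 with vehicle. The part of these shifts in the spread of the member genes was not tested. In such samples, fewer cells of a type and less RNA per cell cannot be told apart.

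**Figure D4:**
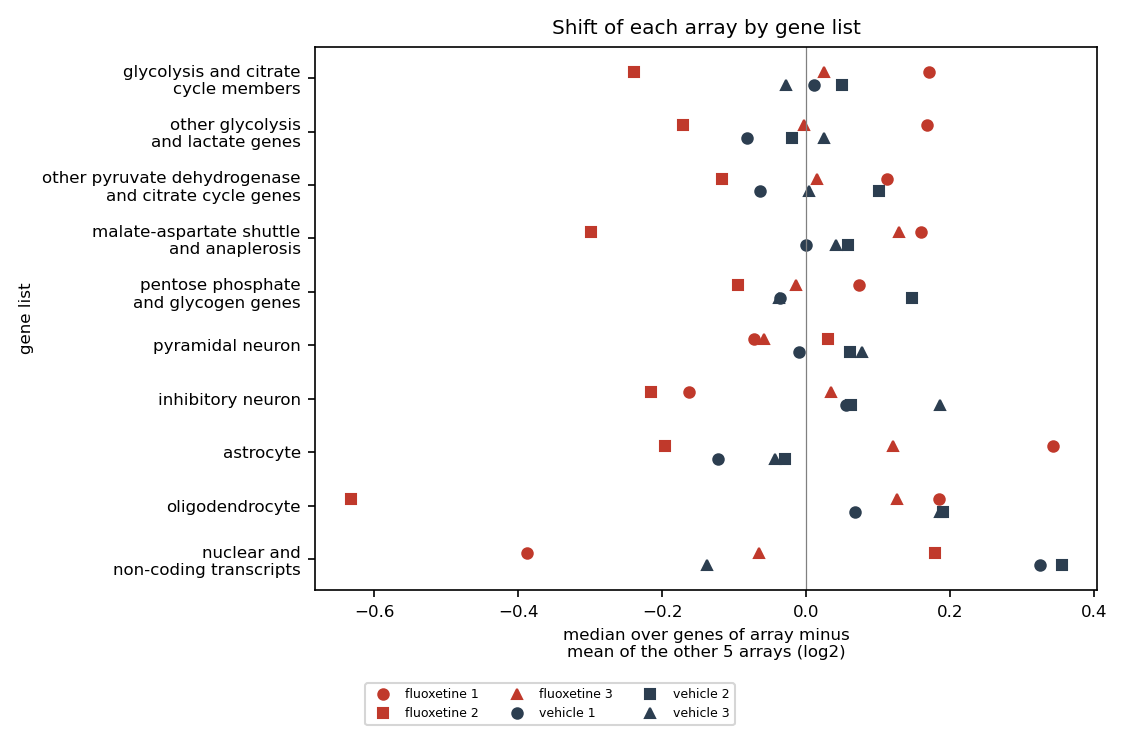
Median over the genes of each list of the log2 level on an array minus the mean of the other 5 arrays; red symbols are fluoxetine arrays and dark symbols vehicle arrays, with a circle, square and triangle for replicates 1, 2 and 3. For the member genes fluoxetine 1 lies at 0.17 and fluoxetine 2 at -0.24. Fluoxetine 2 is also the lowest array for the astrocyte (-0.20), oligodendrocyte (-0.63) and inhibitory neuron (-0.22) markers and for the other metabolic lists shown. Fluoxetine 1 is the lowest for the pyramidal neuron markers (-0.07) and the nuclear and non-coding transcripts (-0.39).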

How the data were processed

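Each array had its own column of linear-scale intensity, deposited after the authors had background-corrected, normalized and summarised the probe sets with GCRMA, per the submitters' processing notes (version and genome build not given in the sources used here). This method compresses dim probe sets and may mask a change common to most genes. RNA (15 ng per sample) had been amplified before hybridisation, per the labels. Median intensities per array were 47.3 to 48.6; the number of arrays limits the precision.

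Values were taken to log2 without an offset. Of 45037 probe sets (64 array controls left out), 22326 had a geometric mean of at least 50 and were tested with limma 3.58.1 in R 4.3.3 (two-sided moderated test, lmFit then eBayes, without a block). Benjamini-Hochberg adjustment covered all of them, at a threshold of 0.05. Probe sets were named from a platform annotation: only the 34945 with a single symbol were named, not the 932 with several or the 9160 without. Isozyme differences and control ratios were compared by exact two-sided permutation tests over arrays. The fit was tested on simulated data.

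The text names all member genes and, from each wider list, up to 4 genes by smallest unadjusted p. The members and lists were chosen with earlier results of these data known. Where nothing says that samples came from separate animals, p-values measure only the spread between these samples. Alternatives were other filters, an offset of 16, quantile and median scaling, the replicate number as a block, other variance settings, array weights, other choices of probe set, a threshold of 0.10, leaving out each array and, chosen after seeing the data, leaving out fluoxetine 1 and vehicle 2 together.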

Additional observations from a re-analysis of the deposited data

How the results depend on the processing

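No member gene and no probe set passed the adjusted threshold of 0.05 under any of the alternatives, or under a threshold of 0.10; the number of probe sets with an unadjusted p under 0.05 was 563 in the reported fit. The number of member genes higher with fluoxetine was 18; leaving out each array in turn gave 7 to 27, and leaving out fluoxetine 1 and vehicle 2 together gave 9. The median difference of 0.01 ranged from -0.07 to 0.07 on leaving out each array. Leaving out probe sets whose suffix (s, x or a) marks that they can match several transcripts, of the same gene or of others, left 22 member genes. Of these, 12 were higher. The sign held under all alternatives run for 6 of 33 genes: Pdk2, Slc16a7 and Suclg1 were higher and Pdk1, Ldhb and Idh3b lower. A scaling alternative turned the sign of 9 genes. Ogdh turned to 0.17 when its probe sets were averaged. Fluoxetine and vehicle arrays share replicate numbers. Deviations from the group means correlated at -0.25, -0.03 and -0.50 for the same numbers and from -0.27 to 0.43 for different ones. With 3 arrays a group such deviations constrain each other, so these values cannot tell whether the numbers pair the arrays. With the replicate number as a block, 0 probe sets passed, 350 had an unadjusted p under 0.05, and 18 member genes were higher. The causes were not tested. The 3 arrays a group and the dimness of Pdk2 and of the second Ogdh and Pfkp probe sets limit the precision.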
